A study of Mus musculus with 19 samples.

Results

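Lyve1, Stab1, Stab2, Prox1, Pdpn, Reln and Mmrn1 are genes by which lymphatic endothelium and scavenger endothelium are usually recognised. They were taken as the probe sets whose only gene symbol was one of these 7 names, which gave 1 probe set for each gene, or 7 of the 21789 probe sets with a single symbol and 7 of the 19938 genes measured. The 19 arrays held RNA of vascular endothelial cells sorted from lymphoid tissue of BALB/c mice, an inbred strain, and each sample was an equal mixture of male and female adults aged 6 to 8 weeks with no treatment or genetic change named in the labels. Of the arrays of peripheral lymph nodes, 3 held capillary and 4 high endothelial cells, and Peyer's patches, which are follicles in the wall of the gut, were measured on 3 arrays for either cell type. The mesenteric lymph nodes were measured on 2 capillary arrays, 2 arrays of high endothelial cells positive for MAdCAM1 and PNAd, and 2 arrays of high endothelial cells positive for MAdCAM1. The labels give no gates for the capillary, peripheral or Peyer's patch sorts, and no antigen by which lymphatic vessels were kept in or out. Nor do they say whether the replicates are independent animals or sorts. The p-values therefore speak to the spread among these arrays alone, and that spread may be technical.

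High endothelial cells (HEC) line the postcapillary venules through which lymphocytes pass from blood into lymphoid tissue. LYVE1 is a membrane receptor for hyaluronan, the large sugar polymer of the matrix, and STAB1 and STAB2 are large endocytic receptors with which sinusoidal endothelium clears hyaluronan and modified proteins from blood and lymph. PROX1 is the transcription factor that sets lymphatic endothelial fate, podoplanin (Pdpn) is the lymphatic membrane mucin that binds CLEC-2 on platelets, reelin (Reln) is a secreted matrix glycoprotein that signals through VLDLR and LRP8, and multimerin-1 (Mmrn1) is a secreted multimeric protein of platelets and lymphatic endothelium.

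Values are log2 signals that were centred for each probe set, so they show differences between arrays, and neither the level of one gene against another nor detection can be read from them. The number of arrays limits their precision. The 7 genes did not vary alike. The means of the 7 sample groups spanned 4.04 log2 for Lyve1, 2.69 for Stab2, 1.25 for Prox1, 1.09 for Mmrn1, 0.68 for Reln, 0.49 for Stab1 and 0.27 for Pdpn, against a median span of 0.35 over all genes. The span of Lyve1 exceeded that of 99.7% of genes and that of Pdpn exceeded 34.5%. In HEC against capillary cells, taken as the mean of the differences in the 3 tissues (11 HEC and 8 capillary arrays), 4 of the 7 genes were higher in HEC and 1 was lower by limma's moderated test at a Benjamini-Hochberg adjusted p below 0.05. Of all genes tested, 33.9% passed in this comparison, 18.0% as higher and 15.9% as lower.

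**Figure D1:**
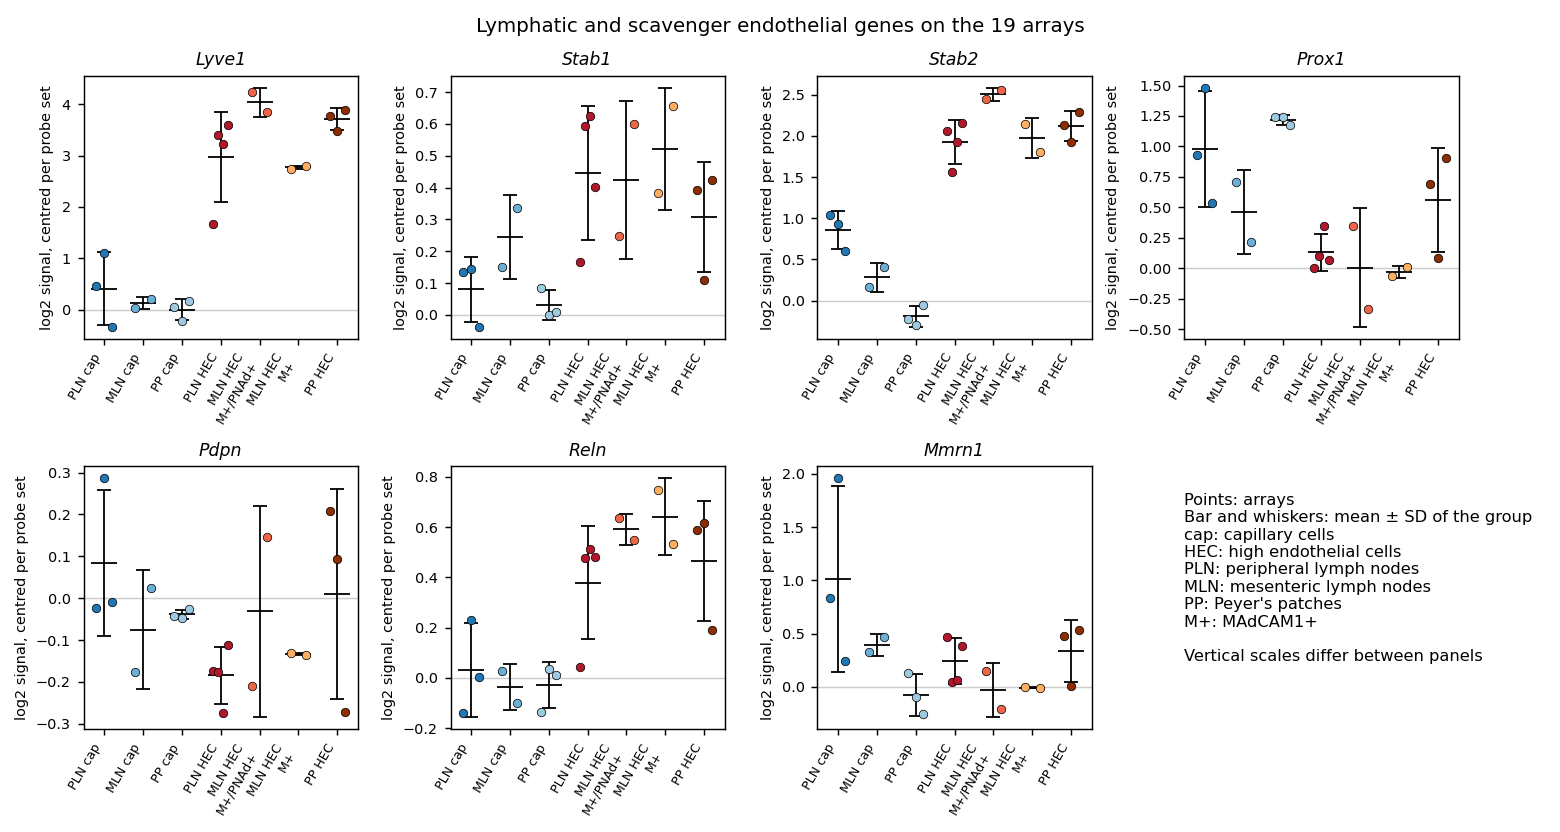
Log2 signal of the 7 genes on each of the 19 arrays, centred for each probe set, by sample group. Points are arrays, horizontal bars group means and whiskers SDs, and the vertical scales differ between panels. Lyve1 and Stab2 lay higher on every HEC array than on any capillary array, as for 4.36% of all genes. Pdpn ranged over 0.56 log2 in all.

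Lyve1 and Stab2, both receptors that take up or bind hyaluronan, were the members with the largest difference between the cell types, and they were higher in HEC in all 3 tissues. On the capillary arrays, Lyve1 read 0.46, 1.10 and -0.33 for peripheral, 0.04 and 0.21 for mesenteric and 0.05, -0.22 and 0.17 for Peyer's patch cells. On the HEC arrays it read 1.67, 3.41, 3.23 and 3.60 in peripheral nodes, 4.24 and 3.84 in double-positive and 2.75 and 2.80 in MAdCAM1-positive mesenteric cells, and 3.77, 3.48 and 3.89 in Peyer's patches. The lowest HEC array, array 1 of the peripheral nodes, still lay above the highest capillary array, and 4.36% of all genes had every HEC array above every capillary array. Lyve1 was higher in HEC by 3.19 ± 0.22 log2 (± SE, limma, 95% interval 2.71 to 3.66, adjusted p = 3.23e-09), a 9.10-fold difference. By tissue the difference was 3.71 ± 0.39 in Peyer's patches (adjusted p = 1.35e-06), 3.28 ± 0.41 in mesenteric nodes (adjusted p = 1.52e-05) and 2.56 ± 0.36 in peripheral nodes (adjusted p = 4.45e-05), again by limma. These arrays measured sorted populations in bulk, so fewer cells of a type and less RNA per cell cannot be told apart.

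Stab2 read 1.05, 0.93 and 0.61 on the peripheral, 0.16 and 0.41 on the mesenteric and -0.22, -0.30 and -0.05 on the Peyer's patch capillary arrays. On HEC arrays it read 2.06, 1.56, 1.93 and 2.16 in peripheral nodes, 2.45 and 2.56 in double-positive and 2.15 and 1.80 in MAdCAM1-positive mesenteric cells, and 2.13, 1.93 and 2.30 in Peyer's patches. HEC arrays of the 3 tissues lay close together, whereas the capillary arrays stepped down from peripheral to mesenteric nodes to Peyer's patches without overlap. Of all genes, 10.6% had every mesenteric capillary array below every peripheral one and 13.4% every Peyer's patch capillary array below every mesenteric one. Stab2 was higher in HEC by 1.78 ± 0.09 log2 (adjusted p = 4.40e-11, limma), or 3.43-fold. The difference was 2.31 ± 0.16 in Peyer's patches, 1.96 ± 0.17 in mesenteric nodes and 1.07 ± 0.15 in peripheral nodes, with adjusted p-values of 7.12e-09, 1.44e-07 and 3.15e-05 (limma).

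Stab1, the paralogue of Stab2 and a receptor also known from macrophages, differed far less. Its capillary arrays lay between -0.04 and 0.34 and its HEC arrays between 0.11 and 0.66, so the cell types overlapped. The mean difference of 0.29 ± 0.08 log2 passed (95% interval 0.13 to 0.45, adjusted p = 0.00616, limma). Within a tissue only the peripheral difference passed (0.37 ± 0.12, adjusted p = 0.0387), while the mesenteric (0.23 ± 0.14, adjusted p = 0.369) and Peyer's patch (0.28 ± 0.13, adjusted p = 0.177) differences did not. The peripheral call was lost under 10 of 27 alternatives. Among these were leaving out peripheral capillary array 1 (adjusted p = 0.0536), 2 (adjusted p = 0.0729) or 3 (adjusted p = 0.152), or HEC array 2 (adjusted p = 0.0915), 3 (adjusted p = 0.110) or 4 (adjusted p = 0.0620). The replicate number as a block was another (adjusted p = 0.0818). The whole range of Stab1 over the 19 arrays was 0.69 log2, and 92.6% of 1228 olfactory, vomeronasal and taste receptor genes, which endothelium is not known to use, ranged over less.

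The promoter windows of Stab2 and Stab1 are given because both paralogues were called in this comparison with different sizes of response. They are the 250 bases before an annotated start of each gene in RefSeq, build GRCm38.p6, 5′ to 3′ on the gene's strand. They lie at chr10:87007943-87008192 for Stab2 and chr14:31168642-31168891 for Stab1, both on the minus strand. The gene bounds used here end at 87008038 for Stab2 and 31168651 for Stab1, so both windows overlap the gene's outermost end. Positions count from the start used for the window. Capitals mark a match to one of the motifs searched, which were AGATAA for GATA factors, TTTCCGG and CCGGAAG for ETS factors, AACAAT for SOX factors, AGGTCA for nuclear receptors and GTAAACA for forkhead factors.

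Stab2: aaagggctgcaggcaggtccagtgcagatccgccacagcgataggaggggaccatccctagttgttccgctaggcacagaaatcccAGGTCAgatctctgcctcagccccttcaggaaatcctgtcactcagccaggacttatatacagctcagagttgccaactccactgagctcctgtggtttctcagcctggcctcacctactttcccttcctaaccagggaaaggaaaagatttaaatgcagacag
Stab1: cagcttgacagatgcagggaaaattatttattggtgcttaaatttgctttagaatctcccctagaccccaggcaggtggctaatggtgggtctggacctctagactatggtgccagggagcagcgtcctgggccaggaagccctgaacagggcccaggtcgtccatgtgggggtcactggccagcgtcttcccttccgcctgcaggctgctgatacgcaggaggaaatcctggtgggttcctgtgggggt

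The search covered both strands of the window together with the first 50 bases after the start. Stab2 held AGGTCA at position -164 and again at position 38 from the start, and Stab1 held none of these motifs. AGGTCA occurred in 16.3% of 32851 promoter windows of the same length, either ETS motif in 11.4%, AGATAA in 11.2%, AACAAT in 10.7% and GTAAACA in 3.6%. A match describes these letters and no binding was measured. Of the 5 genes called as the mean of tissues, Stab1, Stab2, Reln and Prox1 had a window in the table. The 2 windows of Prox1 held none of the motifs.

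Among 34 measured genes of a list of scavenger and sinusoidal endothelial receptors, 6 were higher and 12 lower in HEC. Of all genes, 18.0% were higher and 15.9% lower, so the count of higher genes was near that share. The median difference was -0.12 log2 against -0.01 for all genes. Mrc1, the mannose receptor of sinusoidal endothelium, differed by 0.13 ± 0.07 (adjusted p = 0.149, limma) and the Fc receptor Fcgr2b by 0.14 ± 0.06 (adjusted p = 0.0861), so neither passed beside Stab2 and Lyve1. Mrc1 passed without MAdCAM1-positive array 3 (adjusted p = 0.0401) and with array weights (adjusted p = 0.0095). Fcgr2b passed without peripheral capillary array 2 (adjusted p = 0.0375), after quantile normalization (adjusted p = 0.0373) and with array weights (adjusted p = 0.0128). The members that were most higher were Ehd3, a membrane remodelling ATPase (3.42 ± 0.21), the atypical receptor Gpr182 (2.57 ± 0.07) and the matrix protein Tgfbi (2.10 ± 0.11). The fatty acid and thrombospondin receptor Cd36 (-5.20 ± 0.18), the bridging ligand Gas6 (-2.95 ± 0.10) and the HDL receptor Scarb1 (-1.38 ± 0.06) were most lower.

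In the hyaluronan list, 6 of 27 measured genes were higher in HEC and 7 lower, where 18.0% and 15.9% of all genes were. The median was -0.03 log2. Cd44, the other main hyaluronan receptor, did not pass (0.34 ± 0.14, adjusted p = 0.0788, limma), nor did the synthase Has2 (-0.17 ± 0.07, adjusted p = 0.0616). Cd44 passed under 9 of 26 alternatives, among them leaving out peripheral capillary array 2 (0.42, adjusted p = 0.0213), Peyer's patch capillary array 1, double-positive array 2 or MAdCAM1-positive array 4. Has2 passed without peripheral capillary array 1 (adjusted p = 0.0157), Peyer's patch capillary array 2 or Peyer's patch HEC array 1. The inter-alpha-trypsin inhibitor heavy chains, of which some are coupled to hyaluronan, went both ways. Itih3 was higher by 3.69 ± 0.07 and Itih4 by 1.10 ± 0.11, while Itih5 was lower by 2.30 (SE 0.10). The Itih5 mean joins unlike tissues. Its capillary arrays lay between -2.7 and -2.4 in Peyer's patches and between 0.9 and 2.6 in the nodes. Its HEC arrays lay between -3.4 and -3.2 in Peyer's patches, -3.3 and -2.6 in mesenteric and 0.04 and 0.30 in peripheral nodes.

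**Figure D2:**
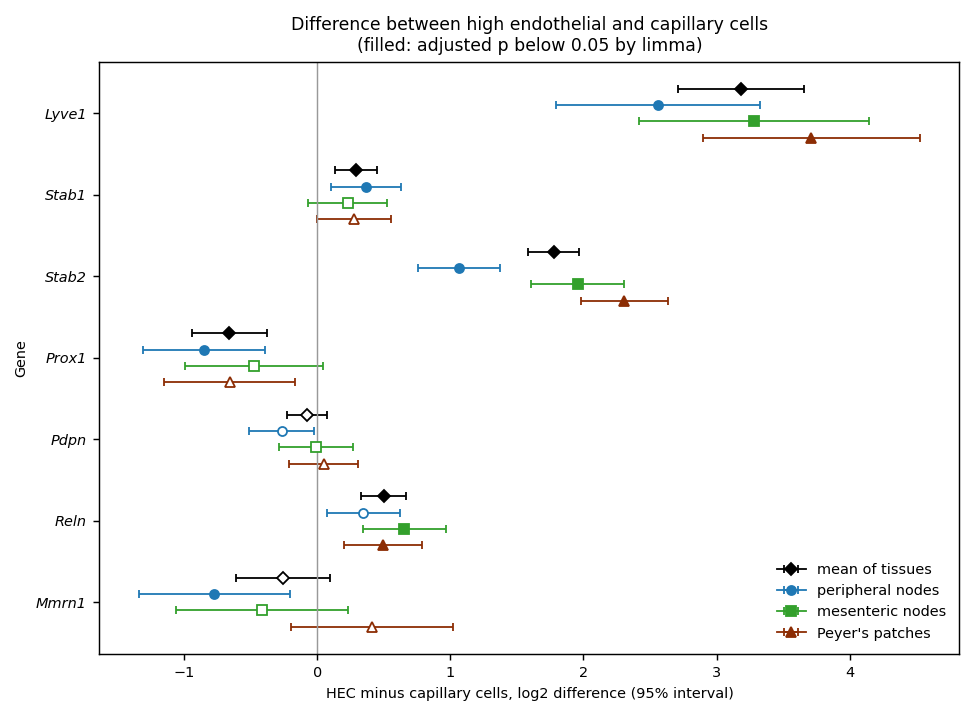
Difference of HEC minus capillary cells in log2 for each gene, as the mean of 3 tissues and within each tissue, with 95% intervals from limma. Filled symbols passed an adjusted p below 0.05, and the 3 Stab2 differences increased from 1.07 in peripheral nodes to 2.31 in Peyer's patches.

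Reln was higher in HEC by a small amount, and its receptor Vldlr and intracellular adaptor Dab1 were higher by more. Reln read -0.14, 0.23 and 0.00 on peripheral, 0.03 and -0.10 on mesenteric and -0.13, 0.04 and 0.01 on Peyer's patch capillary arrays. The HEC arrays read 0.04, 0.48, 0.51 and 0.48 in peripheral nodes, 0.64 and 0.55 in double-positive and 0.75 and 0.53 in MAdCAM1-positive mesenteric cells, and 0.59, 0.62 and 0.19 in Peyer's patches. All but 2 HEC arrays, peripheral array 1 and Peyer's patch array 3, lay above the highest capillary array. The mean difference was 0.50 ± 0.08 log2 (95% interval 0.33 to 0.67, adjusted p = 8.75e-05, limma), or 1.41-fold. Reln passed in mesenteric nodes (0.65 ± 0.15, adjusted p = 0.00463) and Peyer's patches (0.49 ± 0.14, adjusted p = 0.0173), and the peripheral difference of 0.35 ± 0.13 did not (adjusted p = 0.0625). The mesenteric call was lost without capillary array 2, where 1 mesenteric capillary array was left. The Peyer's patch call was lost without capillary array 1 (adjusted p = 0.066), HEC array 1 (adjusted p = 0.0796) or HEC array 2 (adjusted p = 0.0704). The peripheral difference passed under 5 of 28 alternatives. Among these were leaving out HEC array 1 (0.46, adjusted p = 0.0121), capillary array 2 (adjusted p = 0.0426) or Peyer's patch HEC array 3 (adjusted p = 0.0337).

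The Reln window, shown as the third called member that was higher in HEC with a window in the promoter table, lies at chr5:22344706-22344955 of GRCm38.p6 on the minus strand, 5′ to 3′ on the gene's strand. Capitals mark CTTCCGG at position -186, which is CCGGAAG on the other strand.

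Reln: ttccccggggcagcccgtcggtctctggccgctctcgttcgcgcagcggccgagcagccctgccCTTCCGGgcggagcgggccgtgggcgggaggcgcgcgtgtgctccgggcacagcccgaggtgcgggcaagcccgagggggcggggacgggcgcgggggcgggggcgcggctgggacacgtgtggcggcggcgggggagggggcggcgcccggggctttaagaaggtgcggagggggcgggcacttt

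The window held no other of the motifs searched.

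Vldlr is a receptor of reelin and of lipoproteins. It lay between -1.60 and 0.00 on capillary arrays and between 0.46 and 2.05 on HEC arrays. These did not overlap, as for the 4.36% of all genes with every HEC array above every capillary array. Vldlr was higher in HEC by 2.26 ± 0.11 log2 (adjusted p = 2.03e-11, limma). The difference was 2.41 in Peyer's patches, 2.21 in mesenteric and 2.16 in peripheral nodes, each of which passed. Among HEC, Vldlr was lower in mesenteric than in peripheral nodes by 1.00 (SE 0.16, adjusted p = 0.00161). Dab1, the adaptor that is phosphorylated when reelin binds its receptors, lay between -0.86 and 0.45 on capillary and between 1.03 and 2.34 on HEC arrays, also with no overlap. Its difference was 1.94 ± 0.10 (adjusted p = 4.07e-11), and it was 2.81 in Peyer's patches, 1.77 in mesenteric and 1.25 in peripheral nodes. The Peyer's patch and peripheral differences of Dab1 differed by 1.56 ± 0.23 (adjusted p = 0.000664 for this interaction).

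Lrp8, the other reelin receptor, did not pass as the mean of tissues (0.12 ± 0.06, adjusted p = 0.128, limma), except with array weights (adjusted p = 0.0402). It was higher in Peyer's patch HEC by 0.41 ± 0.10 (adjusted p = 0.00756, and 0.0613 in a fit of the compared groups), and its peripheral and mesenteric differences were -0.14 and 0.10. The Peyer's patch and peripheral differences of Lrp8 differed by 0.55 ± 0.14 (adjusted p = 0.0335), a call that was lost under 13 of 26 alternatives, among them leaving out peripheral capillary array 2 or 3, peripheral HEC array 1, 3 or 4, Peyer's patch capillary array 1 or 2 and Peyer's patch HEC array 1 or 2 (adjusted p between 0.0554 and 0.102). In the whole list of reelin, podoplanin and multimerin partners, 8 of 31 measured genes were higher and 9 lower as the mean of tissues. Of all genes, 18.0% were higher and 15.9% lower. The median of the list was -0.07 log2.

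**Figure D3:**
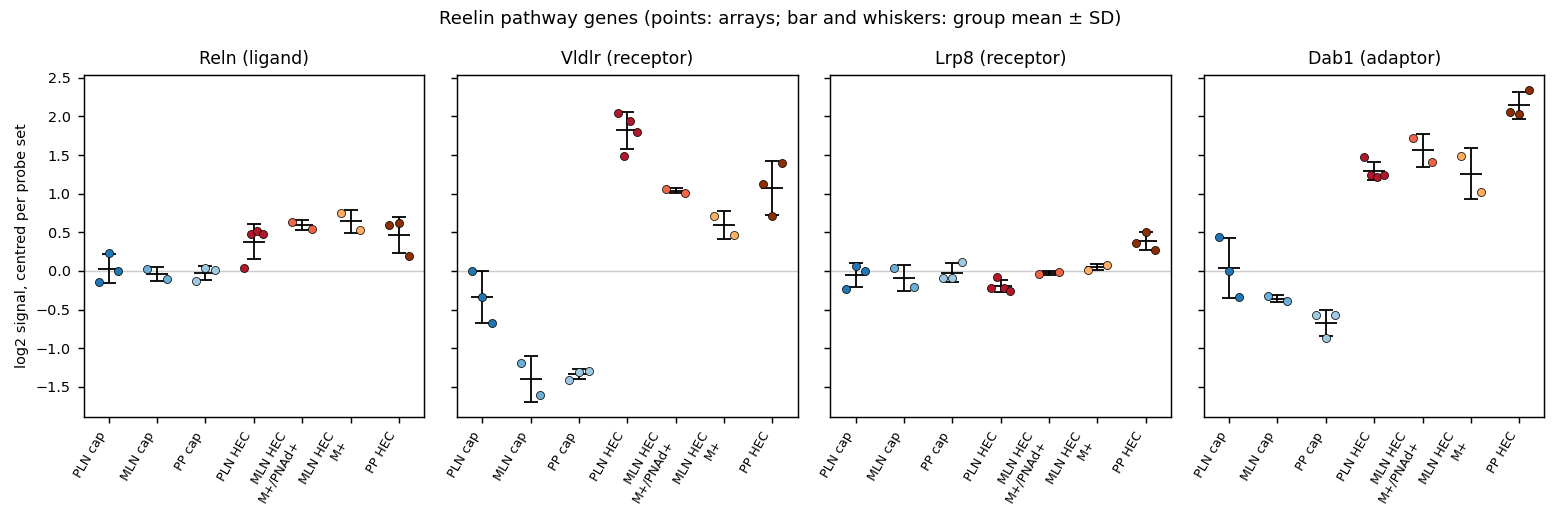
Log2 signal, centred for each probe set, of Reln, its receptors Vldlr and Lrp8 and the adaptor Dab1 on each array by sample group, on 1 common scale. Points are arrays, bars group means and whiskers SDs. Vldlr and Dab1 did not overlap between the cell types, as for the 4.36% of all genes with every HEC array above every capillary array. Reln moved within -0.14 to 0.75.

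Of the lymphatic genes among the members, Reln was higher in HEC as Lyve1 was, and Prox1, Mmrn1 and Pdpn were not. Prox1 was lower in HEC, and Mmrn1 and Pdpn did not pass as the mean of tissues. Prox1 read 0.93, 1.48 and 0.53 on peripheral, 0.71 and 0.22 on mesenteric and 1.24, 1.24 and 1.17 on Peyer's patch capillary arrays. On HEC arrays it read 0.00, 0.10, 0.35 and 0.07 in peripheral nodes, 0.35 and -0.34 in double-positive and -0.07 and 0.01 in MAdCAM1-positive mesenteric cells, and 0.69, 0.09 and 0.91 in Peyer's patches. In peripheral nodes and in Peyer's patches every capillary array lay above every HEC array of the same tissue, as for 19.6% and 13.9% of all genes, while the mesenteric arrays overlapped. Prox1 was lower in HEC by 0.66 log2 (SE 0.13, 95% interval -0.94 to -0.38, adjusted p = 0.00077, limma), or 1.58-fold. Peripheral nodes gave -0.85 ± 0.22 (adjusted p = 0.00794), Peyer's patches -0.66 ± 0.23 (adjusted p = 0.0569) and mesenteric nodes -0.47 ± 0.25 (adjusted p = 0.260). Only the peripheral one passed, and it fell to -0.60 (adjusted p = 0.0708) without peripheral capillary array 2 and to -0.40 (adjusted p = 0.382) without arrays 1 and 2. The Peyer's patch difference passed without its own HEC array 3 (-0.83, adjusted p = 0.0238). In all it passed under 10 of 28 alternatives. Among these were leaving out peripheral capillary array 2 (adjusted p = 0.0307) or 3 (adjusted p = 0.0370), or either double-positive mesenteric array.

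Mmrn1 varied most among peripheral capillary arrays, which read 0.83, 1.96 and 0.24. The mesenteric capillary arrays read 0.32 and 0.47 and those of Peyer's patches 0.13, -0.10 and -0.26. HEC arrays read 0.46, 0.05, 0.06 and 0.38 in peripheral nodes, 0.15 and -0.21 in double-positive and -0.01 and -0.01 in MAdCAM1-positive mesenteric cells, and 0.48, 0.00 and 0.53 in Peyer's patches. Peripheral capillary array 2 stood alone, and in Peyer's patches the HEC arrays read higher on average than the capillary arrays. The mean difference of -0.26 ± 0.17 did not pass (95% interval -0.61 to 0.09, adjusted p = 0.271, limma), and passed only without peripheral capillary array 3 (-0.39, adjusted p = 0.038). The peripheral difference of -0.77 ± 0.27 passed (adjusted p = 0.0457), and it was -0.30 (adjusted p = 0.328) without capillary array 2. This call was lost under 21 of 28 alternatives, among them leaving out any array of the study but peripheral capillary array 3 and Peyer's patch HEC arrays 2 and 3 (adjusted p up to 0.328), and the replicate block (adjusted p = 0.0649). The mesenteric (-0.42 ± 0.31, adjusted p = 0.493) and Peyer's patch (0.41 ± 0.29, adjusted p = 0.395) differences did not pass.

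Pdpn lay between -0.18 and 0.29 on capillary and between -0.28 and 0.21 on HEC arrays. Its mean difference was -0.08 ± 0.07 (95% interval -0.23 to 0.08, adjusted p = 0.476, limma), and no tissue gave a call. The peripheral difference was -0.27 ± 0.12 (adjusted p = 0.103, and 0.0473 without Peyer's patch HEC array 3), the mesenteric one -0.01 ± 0.13 (adjusted p = 0.988) and the Peyer's patch one 0.05 ± 0.12 (adjusted p = 0.859). In all, the peripheral difference of Pdpn passed under 2 of 27 alternatives. Its range over all arrays, 0.56 log2, exceeded that of 81.1% of the receptor genes named above.

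Peripheral capillary array 2 was the highest capillary array for Lyve1, Prox1, Pdpn, Reln and Mmrn1, and it also stood apart in markers of other cells. The mean of 24 macrophage markers was 0.22, 0.65 and 0.04 on peripheral capillary arrays 1, 2 and 3, between -0.01 and 0.03 on mesenteric and between -0.15 and -0.08 on Peyer's patch capillary arrays. The mean of 20 fibroblastic reticular cell and fibroblast markers was 0.10, 0.56 and 0.07 on the same 3 arrays and between -0.08 and 0.07 on the other capillary arrays. On HEC arrays macrophage markers lay between 0.17 and 0.44 for peripheral, 0.05 and 0.16 for mesenteric and -0.05 and 0.27 for Peyer's patch cells. Fibroblast markers lay between -0.43 and -0.10 on all HEC arrays. Since values are centred, which of these markers are at background cannot be told. Their part in the results for Mmrn1, Prox1 and Stab1 was not tested.

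Of the macrophage markers, 4 of 24 were higher in HEC as the mean of tissues and 0 lower, with 20 at an adjusted p of 0.05 or more by limma. Of all genes, 18.0% were higher and 15.9% lower in this comparison, so the count of higher macrophage markers was near that share. The same shares apply to the other lists of this paragraph. With 1 array left out 4 were higher and 0 to 3 lower, with 3 lower without Peyer's patch HEC array 2 and 2 without peripheral capillary array 1 or 3. The 4 that were higher were Pf4 (1.67 ± 0.13), which platelets also hold, Cd14 (0.97), Laptm5 (0.52) and Fcer1g (0.47), the last 3 named after their values were seen. Pf4 lay between 2.9 and 4.0 on peripheral, 0.6 and 1.9 on mesenteric and 0.3 and 0.5 on Peyer's patch HEC arrays. On capillary arrays Pf4 lay between -0.2 and 0.8. Of 20 fibroblast markers, 2 were higher and 8 lower, led by Fn1 (-3.62 ± 0.10) and Pdgfrb (-1.47 ± 0.14), and 5 were lower without peripheral capillary arrays 1 and 2. B and T cell markers were higher in 11 of 17 genes and lower in 0, led by Spib (1.03 ± 0.07), and their mean ran from 0.09 to 0.64 on HEC and from -0.16 to 0.19 on capillary arrays. Of 10 measured genes of the platelet list, Vwf, which is also an endothelial gene, was higher (1.46 ± 0.14). Ppbp, named after its value was seen, was lower by 0.23 and Clec1b, the receptor of podoplanin, did not pass (-0.08 ± 0.05, adjusted p = 0.241). Pan-endothelial markers were lower in 11 of 16 genes and higher in 0, or in 1 without peripheral HEC array 2 or Peyer's patch HEC array 1 or 2. Cdh5 differed by -0.37 ± 0.05 (adjusted p = 6.26e-06), Cldn5 by -2.02 ± 0.18 and Pecam1 by -0.06 ± 0.06 (adjusted p = 0.503). The part of these markers in the member genes' differences was not tested.

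Among genes listed with lymphatic development, more were lower in HEC, as Prox1 was, than higher. Of 35 measured genes of the list of lymphatic identity and the VEGF-C pathway, 7 were higher and 21 lower in HEC, with a median of -0.24 log2. Of all genes, 18.0% were higher and 15.9% lower. The list counts were 6 and 13 in Peyer's patches, 4 and 14 in mesenteric and 7 and 19 in peripheral nodes. The shares of all genes there were 8.90% and 10.6%, 7.87% and 7.31%, and 13.1% and 11.4%. The list also holds arterial genes and pan-endothelial genes such as Tek, so its counts are not those of lymphatic genes alone. Flt4, the VEGF-C receptor, lay between 0.92 and 1.62 on capillary arrays and between -0.65 and 0.17 on HEC arrays, with no overlap, as for 4.45% of all genes. It was lower by 1.49 (SE 0.08, adjusted p = 6.96e-11, limma). Sox18, which switches on Prox1 in development, was lower by 0.92 (SE 0.10). The arterial and valve gene Efnb2 (-3.73 ± 0.07), the connexin gene Gja4 (-2.90 ± 0.10) and the receptor gene Tek (-1.09 ± 0.11) were lower as well. Among those that were higher were Ackr2, the chemokine scavenger of lymphatic endothelium (3.10 ± 0.11), the venous and lymphatic transcription factor Nr2f2 (1.97 ± 0.09) and Fgl2 (1.31 ± 0.29).

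**Figure D4:**
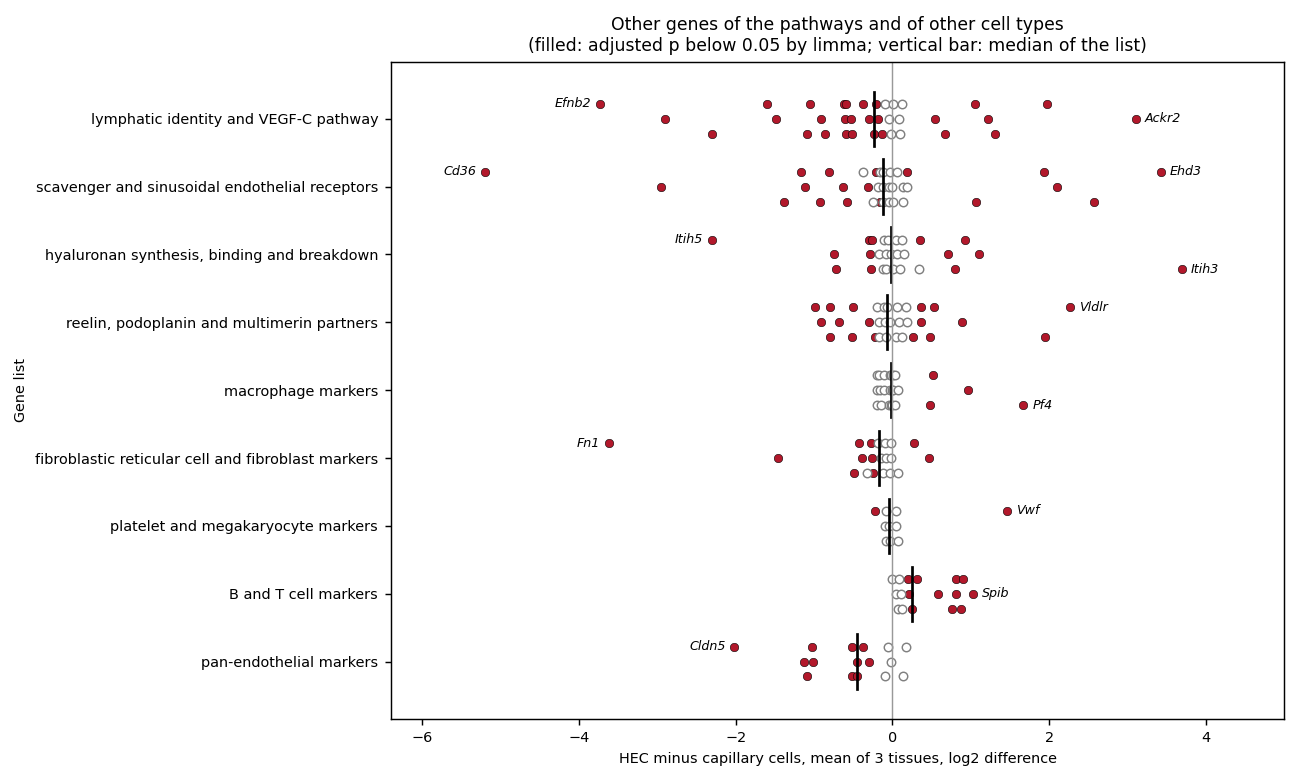
Difference of HEC minus capillary cells as the mean of 3 tissues, in log2, for each measured gene of 9 lists. Filled points passed an adjusted p below 0.05 by limma, open points did not, and the vertical bar is the list's median. In the lymphatic list 21 of 35 genes lay lower in HEC and 7 higher, against 15.9% and 18.0% of all genes. In the macrophage list 20 of 24 did not pass, and of all genes 33.9% passed.

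Counted by tissue, 3 of the 7 genes were higher and 2 lower in peripheral HEC, where 13.1% of all genes were higher and 11.4% lower (24.6% in all). In mesenteric nodes 3 were higher and 0 lower, against 7.87% and 7.31% of all genes (15.2% in all), and in Peyer's patches 3 were higher and 0 lower, against 8.90% and 10.6% (19.5% in all). The 2 that were lower in peripheral HEC, Prox1 and Mmrn1, both lost that call without peripheral capillary array 2. Lyve1 and Stab2 were in each of these sets. The comparisons within tissues and their mean share all their arrays.

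HEC of the 3 tissues were then set against each other, and capillary cells likewise, to see whether the genes depend on the tissue. Among HEC none of the 7 genes passed by limma. The lowest adjusted p was 0.217 for Peyer's patches against peripheral nodes, 0.301 for mesenteric against peripheral nodes and 0.265 for Peyer's patches against mesenteric nodes, where 0, 1 and 1 genes had an unadjusted p below 0.05 and 6.65%, 2.69% and 1.20% of all genes passed. Lyve1 differed by 0.74 ± 0.36 between Peyer's patch and peripheral HEC (95% interval -0.02 to 1.51), Stab2 by 0.31 ± 0.14 between mesenteric and peripheral HEC (95% interval 0.03 to 0.60), and Prox1 by 0.57 ± 0.22 between Peyer's patch and mesenteric HEC (95% interval 0.11 to 1.03). These intervals are not adjusted for the number of genes.

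Among capillary cells, Stab2 and Mmrn1 were lower in Peyer's patches than in peripheral nodes, where 4.64% of all genes passed and 2.24% were lower. Stab2 was lower by 1.05 log2 (SE 0.16, adjusted p = 0.000361, limma), or 2.07-fold, and Mmrn1 by 1.09 (SE 0.29, adjusted p = 0.0375), or 2.12-fold. The Stab2 arrays did not overlap, and those of Mmrn1 did not either, with 0.13 as the highest in Peyer's patches and 0.24 as the lowest in peripheral nodes, as for 9.99% of all genes. Both comparisons use the peripheral capillary arrays described above. With any 1 array left out the Stab2 difference lay between -1.18 and -0.96, and its call was kept under 27 of 28 alternatives. The alternative that lost it left out arrays 1 and 2, so that 1 peripheral capillary array remained, and gave -0.80. The Mmrn1 difference was then -0.32, and without array 2 alone it was -0.61 (adjusted p = 0.136, limma), where its call was lost. Mmrn1 also lost this call without peripheral capillary array 1 (adjusted p = 0.0610), Peyer's patch capillary array 2 (adjusted p = 0.119) or 3 (adjusted p = 0.156), or Peyer's patch HEC array 1 (adjusted p = 0.0506). Prox1 differed by 0.24 ± 0.23 in this comparison.

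No member passed between mesenteric and peripheral capillary cells or between Peyer's patch and mesenteric capillary cells by limma, with 1 and 2 members at an unadjusted p below 0.05 and 0.291% and 1.86% of all genes called. Stab2 differed by -0.58 ± 0.17 (adjusted p = 0.357) and by -0.47 ± 0.17 (adjusted p = 0.323) in these comparisons, and Prox1 by 0.76 ± 0.26 in the latter (adjusted p = 0.248). Comparisons of 3 tissues share their arrays in pairs.

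The difference between HEC and capillary cells depended on the tissue for 1 member. The Peyer's patch difference of Stab2 exceeded its peripheral difference by 1.24 ± 0.21 log2 (95% interval 0.79 to 1.69, adjusted p = 0.00221, limma), in an interaction that 4.05% of all genes passed. The Stab2 means of HEC were 2.12 and 1.93 in these tissues and those of capillary cells -0.19 and 0.86, so these tissues lay further apart among capillary than among HEC arrays. Without peripheral capillary arrays 1 and 2 it was 0.99 (adjusted p = 0.0742). The mesenteric difference of Stab2 exceeded the peripheral one by 0.89 ± 0.22 (adjusted p = 0.128) and the Peyer's patch difference exceeded the mesenteric one by 0.35 ± 0.23 (adjusted p = 0.833), neither of which passed.

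For Lyve1 and Mmrn1 the interaction of Peyer's patches against peripheral nodes was 1.15 ± 0.53 (adjusted p = 0.248, limma) and 1.19 ± 0.39 (adjusted p = 0.115), and the latter passed without peripheral capillary array 3 (1.57, adjusted p = 0.0124). In all, 3, 1 and 0 members had an unadjusted p below 0.05 in the 3 interactions, and 0.416% and 0.752% of all genes passed in the other two. Gpr182 also had a capillary level that depended on the tissue. It was lower in Peyer's patch than in peripheral capillary cells by 1.52 (SE 0.12, adjusted p = 5.08e-07) and its interaction was 1.23 ± 0.17 (adjusted p = 0.000331). Nr2f2 gave an interaction of 1.17 ± 0.21 (adjusted p = 0.00317), which was 0.99 (adjusted p = 0.0753) without peripheral capillary arrays 1 and 2.

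The 2 mesenteric HEC gates, which differ in whether PNAd was part of the sort, gave no call for a member, and 4 of 19938 genes (0.0201%) passed by limma, all lower in the double-positive cells. Lyve1 was higher in the double-positive arrays by 1.27 ± 0.47 (95% interval 0.27 to 2.27) and Stab2 by 0.53 ± 0.19 (95% interval 0.13 to 0.93), each with an adjusted p of 1.00 and an unadjusted p below 0.05. For both genes the 2 double-positive arrays lay above the 2 MAdCAM1-positive arrays, as for 15.6% of all genes. With 2 arrays for each gate, and intervals not adjusted for the number of genes, a difference of this size was not resolved.

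Across the 19 arrays Lyve1 and Stab2 had a Pearson correlation of 0.921, Lyve1 and Reln of 0.863, Stab2 and Reln of 0.782 and Lyve1 and Stab1 of 0.714. Prox1 had a correlation of -0.676 with Stab2, -0.57 with Lyve1 and 0.438 with Mmrn1. Pdpn reached 0.395 with Mmrn1 and -0.163 with Lyve1. These values describe arrays that share cell type and tissue within groups, and the points fall apart by cell type.

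**Figure D5:**
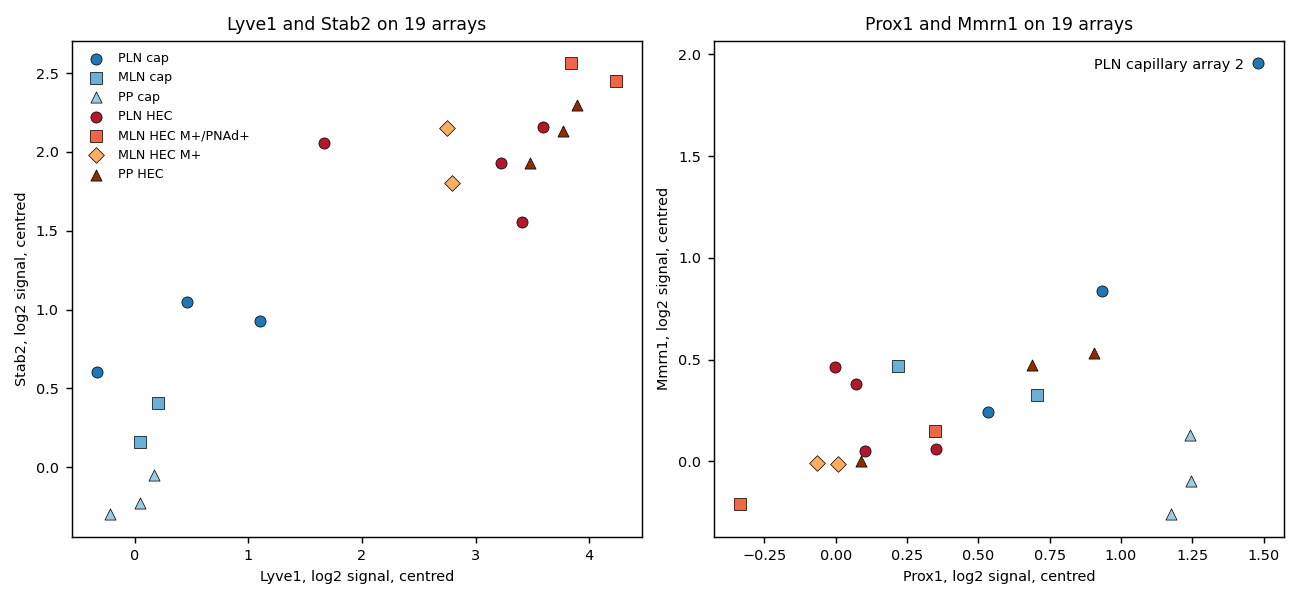
Left, Stab2 against Lyve1, and right, Mmrn1 against Prox1, as log2 signals centred for each probe set, with 1 point for each of the 19 arrays and a symbol for each group. HEC and capillary arrays form 2 clouds on the left, and peripheral capillary array 2 lies at the top right of the right panel with 1.48 for Prox1 and 1.96 for Mmrn1.

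For the 4 members whose group means spanned at least 1 log2, the genes most like them were sought by Pearson correlation over the 19 arrays. Of 2114 genes of the same minimum span, 2070 were searched, which leaves out predicted genes and symbols that are only clone accessions. A gene picked this way tends to share the member's direction between the cell types, so that direction is no separate result. Nearest to Lyve1 were Rdh1 (0.959), Serpina3n (0.958) and Spib (0.955), of which Serpina3n was higher in HEC by 4.53 ± 0.27 and Rdh1 by 2.74 ± 0.07. Nearest to Stab2 were Entpd2 (0.975), Sirpa (0.971) and Pglyrp1 (0.970), which were higher in HEC by 1.17 ± 0.06, 1.89 ± 0.08 and 3.44 ± 0.10. Prox1 was most like Mgat4a (0.875), St8sia6 (0.848) and Eogt (0.827), all lower in HEC, by 1.07, 1.22 and 1.23. Mmrn1 was most like Ccdc3 (0.801), Pla2g2d (0.794) and Il1a (0.777), with differences of -0.57, -0.42 and -0.55, and its likeness was lower than that of the others. The Pla2g2d difference did not pass (adjusted p = 0.0679, limma). Spib is in the B and T cell list given above.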

How the data were processed

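Total RNA of sorted cells was amplified, labelled as single-stranded cDNA and put on whole-transcript arrays, as the labels' protocols say. The values the authors deposited are on the log2 scale and come from RMA and Partek (no version given) according to the submitters' processing notes. RMA quantile-normalises arrays and compresses large folds. An exact 0 occurred in 54.47% of probe sets, and the whole range was -4.092 to 6.128. They had thus been centred on a baseline the sources used here do not state.

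Of 28856 probe sets, 21789 had 1 symbol, 1621 several and 5446 none, and 21698 were matched by Entrez identifier to a RefSeq gene table of GRCm38.p6. Probe sets of a gene were averaged (999 of 19938 genes). The 7 genes each had 1. limma 3.58.1 in R 4.3.3 fitted 7 group means to all 19 arrays (12 residual degrees of freedom, prior of 4.62), with mesenteric HEC as the mean of both gates. Two-sided p-values of each contrast were corrected over all genes (Benjamini-Hochberg), and 0.05 was the threshold. The fit was tested on simulated data.

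Besides the 7 genes, the text names up to 3 highest and 3 lowest called genes of each list with a log2 difference of at least 1, a fixed set (Flt4, Ackr2, Nr2f2, Sox18, Mrc1, Fcgr2b, Cd44, Has2, Vldlr, Lrp8, Clec1b, Mmrn2, Pecam1, Cdh5) and the 3 genes most correlated with each member whose group means span at least 1 log2. Members and lists were chosen with earlier results of these data known. The multimerin paralogue Mmrn2 differed by 0.08 ± 0.07 (adjusted p = 0.426). Alternatives were the replicate block, each array left out, no peripheral capillary arrays 1 and 2, quantile normalization again, median centring, array weights, a fit of the compared groups, other probe set rules and a range filter. Figures used matplotlib 3.10.9 in Python 3.11.15.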

Additional observations from a re-analysis of the deposited data

Results flagged for a closer look

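Reln read 0.042 on array 1 of peripheral HEC, where the other arrays of the group lay between 0.48 and 0.51, so 1 array stood far from the rest. In the same group of 4, 1 array stood apart for Ackr2 (array 2 at 2.62, others 3.03 to 3.11), Clec1b (array 3 at -0.17, others -0.02 to 0), Itih5 (array 4 at 0.038, others 0.27 to 0.30), Ptprb (array 1 at -1.09, others -0.58 to -0.50) and Dab1 (array 1 at 1.47, others 1.21 to 1.25). In all, 42 sets of 4 values were tested against Dixon's critical value of 0.829 and 6 exceeded it, where chance gives about 1 in 20. All these sets come from the same 4 peripheral HEC arrays, so they are not independent. The other groups, with 2 or 3 arrays each, were too small for this rule and were not tested.

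The difference between HEC and capillary cells was larger in Peyer's patches than in peripheral nodes by a tested interaction for Stab2 (1.24), Nr2f2 (1.17), Dab1 (1.56), Gpr182 (1.23) and Lrp8 (0.55). For Gpr182 it was also larger in Peyer's patches than in mesenteric nodes, by 1.10, a call that was lost without mesenteric capillary array 1 (0.98, adjusted p = 0.0626 by limma). These interactions share arrays, and those against peripheral nodes rest on the 3 peripheral capillary arrays described above. Only the members and a chosen part of the named genes could be flagged here, so this is no account of direction. Of 35 measured genes of the lymphatic list, 7 passed the interaction of Peyer's patches against peripheral nodes as higher and 8 as lower. Of all genes, 4.05% passed it in either direction.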

How the results depend on the processing

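As the mean of tissues, the calls for Lyve1 (3.01 to 3.43), Stab2 (1.63 to 1.86), Reln (0.47 to 0.54), Stab1 (0.26 to 0.33) and Prox1 (-0.74 to -0.51) kept direction and side of the threshold under all alternatives that tested them. The range filter (0.77 log2, 8730 genes) left out Stab1 and Pdpn. Over the HEC against capillary differences of the 7 genes (28 results), 707 of 769 values kept direction and side, 58 changed side and 4 changed sign. Over the 16 results of these genes for tissue differences, interactions and gates, the counts were 431 of 448, 17 and 0, and over the other named genes (71 results) 1816 of 1858, 41 and 1. Many of these values could not change sign. Leaving out an array of a group outside the comparison, for example, leaves the difference as it was and moves only its p-value. For the Peyer's patch and mesenteric differences of Pdpn and the mesenteric one of Lrp8, which did not pass, the sign was not fixed. With 1 array left out they ran from -0.052 to 0.19, from -0.11 to 0.093 and from -0.021 to 0.22, and the mesenteric Pdpn difference was 0.037 with the replicate block.

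The number of the 7 genes called changed as follows. The peripheral difference between HEC and capillary cells (5 genes) gave 3 with the replicate block, 2 without peripheral capillary arrays 1 and 2, 3 in a fit of the compared groups and 3 to 7 with 1 array left out. The Peyer's patch one (3 genes) gave 7 with array weights. Among capillary cells, Peyer's patches against peripheral nodes (2 genes) gave 0 without arrays 1 and 2, 1 after median centring, 1 in a fit of the compared groups and 1 to 2 with 1 array left out. Among HEC, where 0 passed, Peyer's patches against peripheral nodes gave 4 with array weights and 0 to 1 with 1 array left out, mesenteric against peripheral nodes 1 after quantile normalization, and Peyer's patches against mesenteric nodes 3 with array weights. The interaction of Peyer's patches and peripheral nodes (1 gene) gave 0 without arrays 1 and 2, 4 with array weights and 1 to 2 with 1 array left out, and that of mesenteric and peripheral nodes (0 genes) gave 1 after quantile normalization. The array weights did not converge and put 41.6 on Peyer's patch HEC array 1 against 0.214 and 0.182 on the other two. The cause of these shifts was not tested.

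Replicate numbers were not taken to pair the samples, since no comparison of 3 pairs had every correlation above 0.1. Same-numbered HEC and capillary arrays correlated between -0.196 and 0.376 in peripheral nodes and between -0.397 and 0.065 in Peyer's patches, and in either tissue 1 of 3 correlated best with its own number. They correlated between 0.00527 and 0.482 for peripheral and Peyer's patch HEC and between -0.163 and 0.417 for capillary cells of these tissues (2 of 3 in both). The 2 mesenteric capillary and double-positive pairs correlated at 0.44 (2 of 2). These correlations are of deviations from group means. With 2 arrays in a group such deviations mirror each other, so the 2 mesenteric pairs must agree and count as 1. The replicate block moved the calls over all genes from 6751 to 6283 as the mean of tissues and from 4897 to 4449 in peripheral nodes. A filter on dim probes needs signal levels and was not run, and a fit of the compared groups is the main fit for the mean of tissues. Where leaving out 1 mesenteric array left 1 in a group, that array is assumed to vary like the others. Depth and signal over background could not be judged from centred values.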
